A study of Mus musculus with 4 samples.

Results

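Genes of glycolysis and of the response to low oxygen were followed in mouse embryonic stem (ES) cells that differed in Sall4, a zinc finger transcription factor, and in the presence of feeder cells. The list held 34 genes, of which 17 encode enzymes of glycolysis, with the isozymes of several steps, and 17 are other targets of hypoxia-inducible factor (HIF) together with Hif1a, which encodes the oxygen-regulated subunit of that factor. A gene was read by the probe set of the array that was annotated to its symbol alone and had the highest mean log2 signal. On this rule 31 of the 34 had values, among 18193 genes named on the array apart from control probe sets, and 30 were tested. Gpi1 and Eno1 had no probe set in the annotation table, Bnip3l only probe sets shared with a pseudogene, and Gapdh only control probe sets, so that Gapdh has values and no test.

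Total RNA came from 4 cultures of E14.1 ES cells, each hybridised to 1 array, and the values are linear MAS5 signals. Heterozygous cells carried Sall4 flox/- (line HET18), and cells called null carried delta/- (line KO1). Each line was grown on gelatin alone, called gelatin here, and on mouse embryonic fibroblasts resistant to blasticidin, called feeders. All 4 cultures had a blasticidin-resistance gene targeted to Oct3/4, which selects for cells that express it, and were kept in medium with LIF (leukaemia inhibitory factor), serum and blasticidin. Each genotype was 1 line, so that line and genotype cannot be told apart, and with 1 array per group no spread between replicate cultures was measured. Precision is limited by there being 4 arrays. Cultures on feeders hold feeder cells too, and fibroblast marker genes were used to follow their RNA. In such bulk samples, fewer cells of a type and less RNA per cell cannot be told apart.

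The 4 arrays had median signals from 16.1 to 18. The ratio of the 3' to the 5' control probe set lay between 0.758 and 0.794 for Gapdh and between 1.22 and 1.29 for actin. Pou5f1, which encodes Oct3/4, gave signals between 977 and 1284. Sall4 read 1126.5 in flox/- cells and 1670.5 in cells labelled delta/- on gelatin, and 780.8 and 1452.4 on feeders. Whether its probe sets lie in the deleted part is not known, so every direction between genotypes rests on the labels. Of 30 fibroblast marker genes, 29 were tested, and their summed signal was 5997 and 13337 on gelatin and 30942 and 40712 on feeders, flox/- first. Among the defining markers on gelatin, Col1a1 read 1.5 in flox/- cells and 36.0 in cells labelled delta/-, Col3a1 19.2 and 243.7, and Col1a2 38.4 and 36.2. Of 16 ES cell marker genes, all tested, the sum lay between 22024 and 27568. The sum of the 5 tested macrophage and blood markers was 139 and 110 on gelatin and 316 and 298 on feeders, flox/- first.

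Glycolysis splits glucose to pyruvate in the cytosol, and lactate dehydrogenase turns pyruvate into lactate. ES cells are known for a high rate of glycolysis even where oxygen is present. HIF is made of an alpha subunit and a constant partner. With oxygen, prolyl hydroxylases mark the alpha subunit for degradation through the VHL protein, and in low oxygen it persists and raises transcription of glycolytic enzymes, glucose transporters, angiogenic factors and its own hydroxylases. The level of HIF1-alpha protein is therefore set largely after transcription, and a transcript array does not measure it.

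HIF binds a short element with the core ACGTG or GCGTG. RefSeq promoter windows (GRCm38.p6, 250 bases before to 50 after the annotated start) were matched by symbol for 31 of the 34 genes, all but Slc2a3, Bnip3l and Ndrg1. The core was searched on both strands, where it reads CACGT or CACGC on the strand shown, and a match on each strand of CACGTG overlaps. Of the 44 windows of these genes, 35 held a match, which is 79.5%, against 43.8% of all 32817 windows of that length. For ACGTG alone the shares were 54.5% and 19.6%. A match is a description of these letters and not a bound site, base composition was not taken into account, and several genes have more than 1 window. Part of the list was also chosen as HIF targets. The windows of 5 genes are shown, chosen for their different patterns on the arrays: Bnip3 and P4ha1 changed with feeders by the test used, as did Ldhb, Pfkp varied between arrays without passing it, and Pgk1 varied little on its brightest probe set. Capitals mark the matches. The windows are chr7:138909457-138909756 on the minus strand for Bnip3, chr10:59323046-59323345 on the plus strand for P4ha1, chr6:142507908-142508207 on the minus strand for Ldhb, chr13:6648722-6649021 on the minus strand for Pfkp and chrX:106186850-106187149 on the plus strand for Pgk1.
Bnip3: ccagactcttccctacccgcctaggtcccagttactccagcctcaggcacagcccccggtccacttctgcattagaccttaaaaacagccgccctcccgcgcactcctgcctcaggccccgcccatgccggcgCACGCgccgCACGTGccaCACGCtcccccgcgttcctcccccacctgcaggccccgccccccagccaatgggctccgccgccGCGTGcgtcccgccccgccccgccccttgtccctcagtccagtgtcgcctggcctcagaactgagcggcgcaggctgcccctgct
P4ha1: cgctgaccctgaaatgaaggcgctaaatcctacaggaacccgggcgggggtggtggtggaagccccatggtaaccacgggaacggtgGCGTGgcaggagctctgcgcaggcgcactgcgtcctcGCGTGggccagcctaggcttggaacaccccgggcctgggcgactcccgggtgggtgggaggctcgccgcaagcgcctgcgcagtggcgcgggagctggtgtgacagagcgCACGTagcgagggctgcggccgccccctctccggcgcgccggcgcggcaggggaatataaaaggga
Ldhb: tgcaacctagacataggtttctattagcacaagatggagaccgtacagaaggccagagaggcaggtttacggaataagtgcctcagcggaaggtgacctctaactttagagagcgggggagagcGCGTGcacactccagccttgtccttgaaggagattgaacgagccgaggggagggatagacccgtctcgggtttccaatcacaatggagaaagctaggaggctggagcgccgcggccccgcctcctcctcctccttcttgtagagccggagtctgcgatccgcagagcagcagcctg
Pfkp: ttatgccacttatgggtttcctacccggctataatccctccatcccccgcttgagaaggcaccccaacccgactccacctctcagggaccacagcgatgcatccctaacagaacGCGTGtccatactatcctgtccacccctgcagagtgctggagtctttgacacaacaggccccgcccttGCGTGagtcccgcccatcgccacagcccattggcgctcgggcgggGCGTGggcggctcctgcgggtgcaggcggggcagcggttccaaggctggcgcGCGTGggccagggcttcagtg
Pgk1: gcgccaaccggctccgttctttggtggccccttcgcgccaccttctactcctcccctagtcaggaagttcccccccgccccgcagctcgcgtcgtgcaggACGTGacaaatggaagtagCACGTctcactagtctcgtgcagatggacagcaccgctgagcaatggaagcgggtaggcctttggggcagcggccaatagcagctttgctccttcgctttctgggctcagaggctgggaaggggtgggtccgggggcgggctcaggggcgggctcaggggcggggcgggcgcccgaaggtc
The Bnip3 window held 4 separate marked stretches, one of them CACGTG, the P4ha1 window 3, the Pfkp window 4, the Pgk1 window 2 and the Ldhb window 1. Since each of the 5 windows shown held a match, they cannot separate genes that changed with feeders from genes that did not pass the test. No window of Eno2, Gpi1 or Tpi1 held a match.

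**Figure D1:**
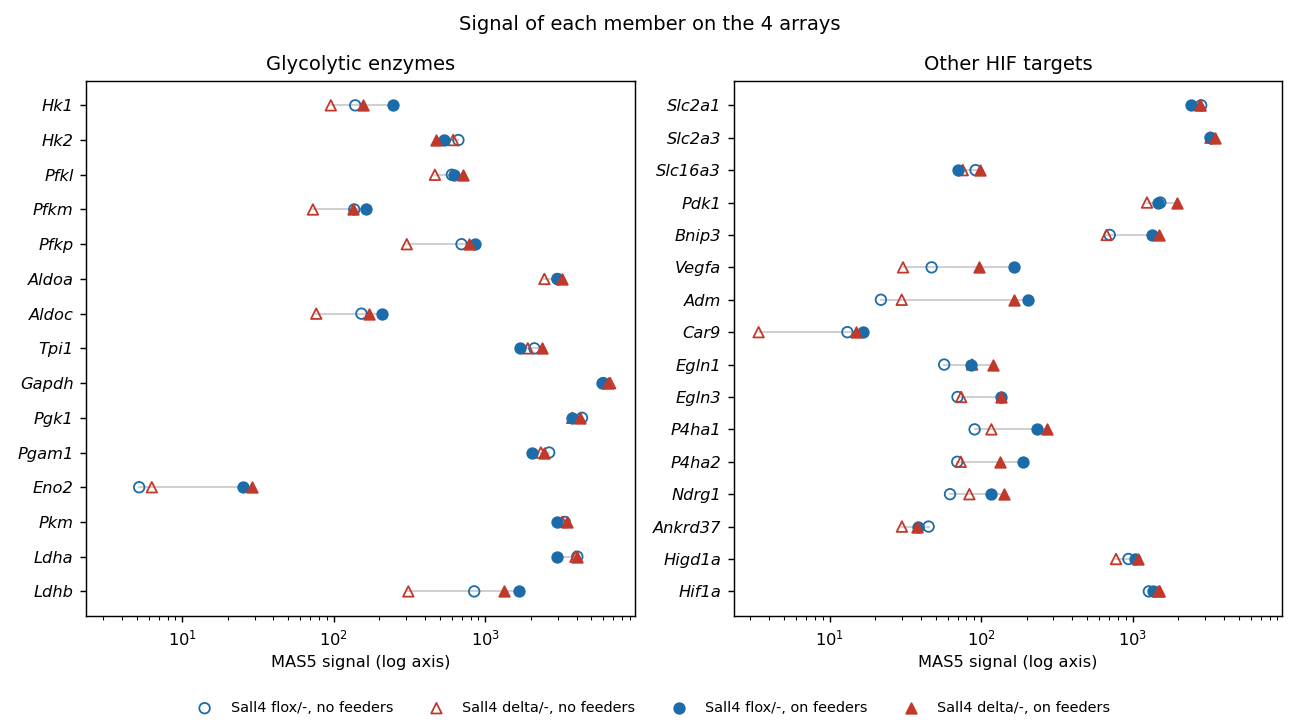
MAS5 signal (log axis) of each of the 31 genes on the 4 arrays, 1 point per array, with glycolytic enzymes on the left and other HIF targets on the right. Open symbols are cultures on gelatin and filled symbols cultures on feeders; circles are flox/- and triangles delta/-. Signals of different genes come from different probe sets and are not comparable with each other. Filled symbols lie to the right for Adm, Vegfa, P4ha1, Bnip3 and Eno2, and the open triangle is the lowest point for Ldhb, Pfkp, Pfkm and Aldoc.

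The first comparison asked how cells labelled delta/- for Sall4 differed from flox/- cells. None of the 30 tested genes passed the additive limma test over all genes (0 of 30, against 0.032% of all 12485 genes), and the lowest adjusted p was 0.294. At an unadjusted p under 0.05, 7 of the 30 lay below the threshold, 6 of them lower in cells labelled delta/- (Hk1, Aldoc, Pfkm, Pfkp, Ldhb and Vegfa) and 1 higher (Egln1). The corresponding shares of all genes were 6.5% lower and 5.8% higher. Differences are on the scale log2(signal + 4.6), labelled delta/- minus flox/-.

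The largest genotype differences among the enzymes, on gelatin, were in alternative isozymes of glycolytic steps. Ldhb, the lactate dehydrogenase subunit typical of heart, read 844 in flox/- cells and 310 in cells labelled delta/- on gelatin, and 1656 and 1336 on feeders. Its signal was thus 2.70-fold lower on gelatin and 1.24-fold lower on feeders. Pfkp, the platelet-type phosphofructokinase, read 696 and 303 on gelatin but 856 and 780 on feeders. Pfkm, the muscle type of the same enzyme, read 136.5 and 72.8 on gelatin and 163 and 135 on feeders. Aldoc, the brain-type aldolase, read 152 and 76.6 on gelatin and 208 and 172 on feeders. In each of these 4 genes the array labelled delta/- on gelatin was the lowest of the 4. On these probe sets the difference on feeders was below 1.25-fold. Over the Pfkp probe sets past the filter, log2 differences ran from -1.33 to -0.68 on gelatin and from -0.46 to 0.05 on feeders. Over those of Ldhb they ran from -1.64 to -1.28 and from -0.38 to -0.27. For Ldhb, Pfkp and Aldoc the array labelled delta/- on feeders lay above the flox/- array on gelatin, so that the genotypes overlapped. The fitted differences were -0.87 for Ldhb (SE 0.26, adjusted p = 0.294), -0.66 for Pfkp (SE 0.25, adjusted p = 0.381), -0.57 for Pfkm (SE 0.22, adjusted p = 0.382) and -0.61 for Aldoc (SE 0.22, adjusted p = 0.372). Leaving out 1 array at a time, they ran from -1.91 to 0.18 for Ldhb, -1.34 to 0.01 for Pfkp, -0.99 to -0.14 for Pfkm and -1.17 to -0.051 for Aldoc, and those of Pfkp, Pfkm and Aldoc were nearest 0 without the array labelled delta/- on gelatin.

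As a rule of size with no test, a gene counted in a pair of arrays when the signals differed at least 1.5-fold and the brighter one lay above the median signal of 17.1. Without feeders these 4 were the enzymes at least 1.5-fold lower in cells labelled delta/-, 4 of 30 tested genes, against 8.14% of all genes. None of the 30 was 1.5-fold higher, against 10.1% of all genes. On feeders Hk1 and Vegfa counted as lower (2 of 30, against 6.76%) and none as higher (against 5.49%). No gene of the 30 counted in the same direction in both pairs, against 2.49% of all genes for lower and 1.47% for higher.

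Hexokinases start the pathway by phosphorylating glucose. Hk1, the widely expressed isozyme, read 138.5 and 95.6 on gelatin and 244 and 156.5 on feeders, and was lower in cells labelled delta/- by a similar amount in both conditions (fitted difference -0.57, SE 0.17, adjusted p = 0.304). A second Hk1 probe set gave log2 differences of -0.85 on gelatin and -0.77 on feeders. Hk2, the inducible isozyme, read 664 and 614 on gelatin and 531 and 475 on feeders, a fitted difference of -0.14 (SE 0.13). Pfkl, the liver type of phosphofructokinase, read 601 and 465 on gelatin and 624 and 716 on feeders. Its 2 brighter probe sets were lower on gelatin and higher on feeders in cells labelled delta/-, and the dimmest was higher in both.

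**Figure D2:**
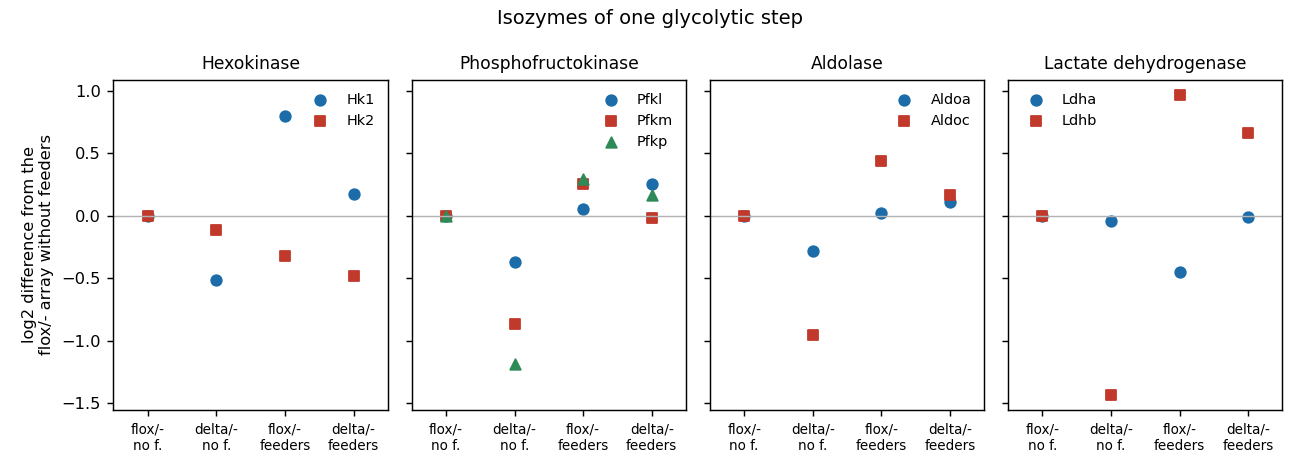
Log2 difference from the flox/- array on gelatin (y axis) for the isozymes of 4 glycolytic steps on each of the 4 arrays (x axis), 1 point per array. Ldhb lies at -1.43 on the delta/- array on gelatin, where Ldha lies at -0.04, and Pfkp lies at -1.19, where Pfkl lies at -0.37.

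Isozymes of the same step were compared through the change of their log2 ratio, which needs no comparison of levels between probe sets. The Ldhb to Ldha ratio was lower in cells labelled delta/- by 1.39 on gelatin and by 0.75 on feeders on the log2 scale. For Aldoc to Aldoa the differences were -0.67 and -0.36, for Pfkp to Pfkl -0.82 and -0.33, for Pfkm to Pfkl -0.50 and -0.47, and for Hk1 to Hk2 -0.40 and -0.47. All 5 ratios were lower in cells labelled delta/- in both pairs. They are not independent, since Pfkl enters 2 of them, and the choice of pairs followed the values of their members.

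A further 7 enzymes differed between genotypes by at most 1.39-fold on their brightest probe sets. Aldoa, Tpi1, Gapdh, Pgk1, Pgam1, Pkm and Ldha, a group formed after their values were seen, cover the steps from aldolase to lactate except enolase. Between genotypes on gelatin their log2 differences ran from -0.28 to 0.15 with a median of -0.14, and 6 of the 7 were lower in cells labelled delta/-. On feeders they ran from 0.09 to 0.47 with a median of 0.21, and 7 of 7 were higher. Ldha, the lactate dehydrogenase subunit typical of muscle, read 4044.5 and 3932.5 on gelatin and 2961 and 4025.5 on feeders, so that the flox/- array on feeders stood apart. Tpi1, triosephosphate isomerase, read 2107 and 1906 on gelatin and 1693 and 2349.5 on feeders. Pgk1, phosphoglycerate kinase, read 4342 and 3742 on gelatin and 3740 and 4245 on feeders. Its dimmest probe set read 1221 and 1366 on gelatin and 1433 and 2573 on feeders, with the array labelled delta/- on feeders apart from the others. Pkm, which encodes the muscle and embryonic pyruvate kinases, read 3342 and 3220 on gelatin and 2992 and 3465 on feeders. Aldoa, the main aldolase of most tissues, read 2983 and 2451 on gelatin and 3029 and 3224.5 on feeders. The phosphoglycerate mutase gene Pgam1 read 2636.5 and 2324 on gelatin and 2018 and 2422 on feeders. In all 5 of Aldoa, Tpi1, Pgk1, Pgam1 and Pkm the genotypes overlapped, and their fitted differences lay between -0.10 and 0.16. Gapdh, often used as a reference gene, read 6001 and 6655.5 on gelatin and 5910 and 6415 on feeders on its brightest control probe set.

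Over the 14 tested enzymes the median difference was -0.25 on gelatin and 0.13 on feeders, against 0.00 and 0.01 over all genes tested. Without feeders 13 of 14 were lower in cells labelled delta/-, all but Eno2, while on feeders 6 of 14 were lower and 8 higher. Beside these counts, the fibroblast marker sum on gelatin was higher in cells labelled delta/- (13337 against 5997) and the ES cell marker sum lower (22024 against 27568). The largest part of both fibroblast sums was Vim, at 1730.3 in flox/- cells and 4448.5 in cells labelled delta/- on gelatin. On feeders Vim read 3794.5 and 4317.3, so its highest signal was on an array without feeders. The fibroblast marker sum on feeders was also higher in cultures labelled delta/- (40712 against 30942). The ES cell marker sum there was lower (25270.4 against 27010.5). The part of these marker differences in the enzyme differences was not tested.

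The other HIF targets gave medians of -0.01 on gelatin and 0.10 on feeders. Among them Vegfa, the angiogenic growth factor, read 47.1 and 30.5 on gelatin and 165.6 and 97.4 on feeders. The fitted difference of Vegfa was -0.65 (SE 0.20, adjusted p = 0.309). A second, dimmer Vegfa probe set gave 0.24 on gelatin and -0.17 on feeders, so that the probe sets of this gene disagreed on gelatin. Egln1, the prolyl hydroxylase that does most to limit HIF1-alpha, read 57 and 87.2 on gelatin and 86.3 and 120.5 on feeders. It was 1.49-fold and 1.38-fold higher in cells labelled delta/- (fitted difference 0.52, SE 0.19, adjusted p = 0.372), and its other probe set gave 0.13 and 0.34. Hif1a itself read 1277 and 1507 on gelatin and 1361 and 1471 on feeders. On this probe set both Hif1a signals of cells labelled delta/- lay above both flox/- ones, by 1.18-fold and 1.08-fold (fitted difference 0.17, SE 0.10, adjusted p = 0.531). Over all genes, 15.1% had both arrays labelled delta/- above both flox/- arrays. On dimmer Hif1a probe sets the genotypes overlapped. One read 152.5 and 177.8 on gelatin and 133.6 and 152 on feeders, and another 102.9 and 97.2 on gelatin and 115.3 and 129.7 on feeders.

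Car9, a carbonic anhydrase of the cell surface, read 13.1 and 3.4 on gelatin and 16.5 and 14.9 on feeders. All 4 Car9 signals lay below the median signal, so it did not count by the rule of size. The glucose transporters varied little on these probe sets. Slc2a3, a high-affinity glucose transporter, read 3256 and 3259 on gelatin and 3304 and 3499 on feeders, and Slc2a1, the transporter of most growing cells, read 2829 and 2794 on gelatin and 2407.5 and 2788 on feeders. The lactate exporter Slc16a3 read 91.8 and 75.6 on gelatin and 70.3 and 98.7 on feeders. Pdk1, the kinase that restrains pyruvate dehydrogenase, read 1520 and 1241 on gelatin and 1479 and 1948 on feeders. In Slc16a3 and Pdk1 the sign of the genotype difference was opposite in the 2 conditions. Ankrd37 read 45.0 and 30.0 on gelatin and 38.4 and 37.8 on feeders, with both signals labelled delta/- below both flox/- ones, as had Pfkm, against 17.1% of all genes. Higd1a, a mitochondrial protein gene of the hypoxia response, read 937 and 776 on gelatin and 1036 and 1085 on feeders. Bnip3l, a relative of Bnip3, gave 871 and 962 on gelatin and 878 and 956 on feeders on the brightest of 3 probe sets shared with its pseudogene Bnip3l-ps.

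**Figure D3:**
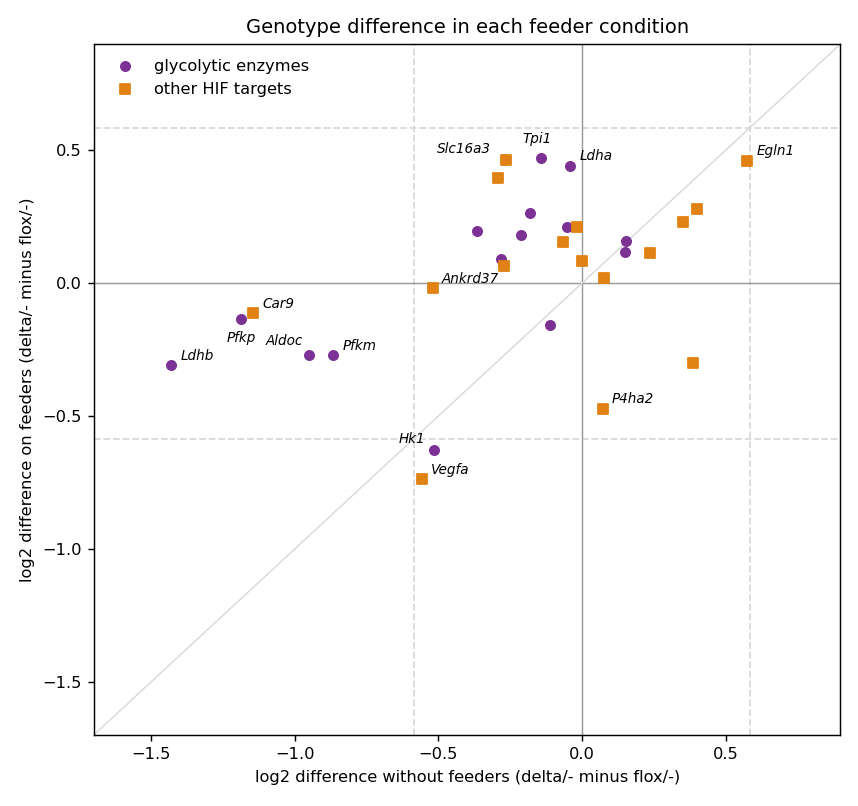
Log2 difference between genotypes (delta/- minus flox/-) on gelatin (x axis) and on feeders (y axis) for the 31 genes, 1 point per gene. Dashed lines mark 1.5-fold and the diagonal marks equal differences. Ldhb, Pfkp, Car9, Aldoc and Pfkm lie far to the left and near 0 on the y axis, while Hk1 and Vegfa lie near the diagonal.

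The next question was how cultures on feeders differed from those on gelatin. Of the 30 genes, 5 rose with feeders by the additive limma test over all genes: Adm, Vegfa, P4ha1, Bnip3 and Ldhb. They were 4 of 16 other HIF targets and 1 of 14 enzymes, and all 5 were higher on feeders. Over all genes tested 4.77% passed, 3.88% higher and 0.881% lower, and none of the 30 fell. At an unadjusted p under 0.05 there were 14 higher and 1 lower, the latter Hk2, against 14.1% and 7.77% of all genes.

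The secreted factors Adm and Vegfa were both higher on feeders. Adm, which encodes the vasodilator peptide adrenomedullin, read 21.8 in flox/- cells and 29.9 in cells labelled delta/- on gelatin, and 203.5 and 164 on feeders. Its signals on feeders lay well apart from those without, 7.88-fold higher in flox/- cells and 4.89-fold higher in cells labelled delta/-. The fitted difference was 2.63 (SE 0.24, adjusted p = 0.00552). The Adm probe set carries the suffix x_at, which marks probes that can bind several transcripts, but the other one, without that suffix, gave log2 differences of 3.67 and 1.91. Vegfa was 3.29-fold and 2.91-fold higher on feeders (fitted difference 1.63, SE 0.20, adjusted p = 0.0131), and its dimmer probe set gave 1.48 and 1.07.

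Hydroxylases of collagen and of HIF form another group. P4ha1 encodes the main catalytic subunit of collagen prolyl 4-hydroxylase, and read 90.5 and 116.8 on gelatin and 232 and 272 on feeders. The P4ha1 signals on feeders were 2.49-fold and 2.28-fold higher (fitted difference 1.25, SE 0.17, adjusted p = 0.0184). P4ha2, which encodes another catalytic subunit of that enzyme, read 69.5 and 73.3 on gelatin and 188 and 134 on feeders, and just missed the threshold (fitted difference 1.10, SE 0.21, adjusted p = 0.0502). Egln3, a HIF prolyl hydroxylase that is itself a HIF target, read 69.8 and 73.8 on gelatin and 134 and 136 on feeders, and also missed it (0.87, SE 0.18, adjusted p = 0.0616). For Egln1 the fitted difference was 0.50 (SE 0.19, adjusted p = 0.207), and its other probe set went the opposite way, at -0.37 and -0.16.

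Bnip3, a mitochondrial protein that promotes removal of mitochondria, read 705 and 673 on gelatin and 1346 and 1500 on feeders. That was 1.90-fold and 2.22-fold (fitted difference 1.04, SE 0.12, adjusted p = 0.00969). In contrast, the 3 shared probe sets of its relative Bnip3l gave feeder differences between -0.34 and 0.08. Ndrg1, a gene induced by stress and differentiation, read 62.3 and 83.6 on gelatin and 117 and 142 on feeders (fitted difference 0.80, SE 0.19, adjusted p = 0.0787). All 5 Ndrg1 probe sets were higher on feeders, by 0.81 to 0.95 in flox/- cells and by 0.49 to 0.91 in cells labelled delta/-.

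Among the enzymes Ldhb alone passed (fitted difference 1.53, SE 0.26, adjusted p = 0.0346). The 4 Ldhb probe sets agreed in direction and were higher on feeders by 0.76 to 1.16 in flox/- cells and by 1.86 to 2.12 in cells labelled delta/-. Eno2, the neuronal enolase, read 5.2 and 6.3 on gelatin and 25.2 and 28.7 on feeders (fitted difference 1.61, SE 0.32, adjusted p = 0.054). Both Eno2 signals on gelatin lay below the filter signal of 9.46, so the gene was tested only through its arrays on feeders and the size of its difference depends on the offset. Hk1 had a fitted difference of 0.74 (SE 0.17, adjusted p = 0.0787), and Hk2 of -0.34 (SE 0.13, adjusted p = 0.199). The Hk1 to Hk2 ratio was higher on feeders by 1.12 in flox/- cells and by 1.05 in cells labelled delta/-. For Ldhb to Ldha these values were 1.42 and 2.06. Pfkp, Aldoc and Pfkm were 2.55-fold, 2.17-fold and 1.80-fold higher on feeders in cells labelled delta/-, but 1.23-fold, 1.36-fold and 1.19-fold in flox/- cells. On their brightest probe sets the 7 enzymes Aldoa, Tpi1, Gapdh, Pgk1, Pgam1, Pkm and Ldha differed by at most 1.37-fold. Their log2 differences ranged from -0.45 to 0.02 in flox/- cells and from -0.05 to 0.39 in cells labelled delta/-. The dimmest Pgk1 probe set gave 0.23 and 0.91, flox/- first. The 5 Aldoa probe sets ran from -0.32 to 0.04 in flox/- cells and from 0.04 to 0.52 in cells labelled delta/-. The genotype and feeder comparisons share arrays, and the low signals of the array labelled delta/- on gelatin enter both.

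**Figure D4:**
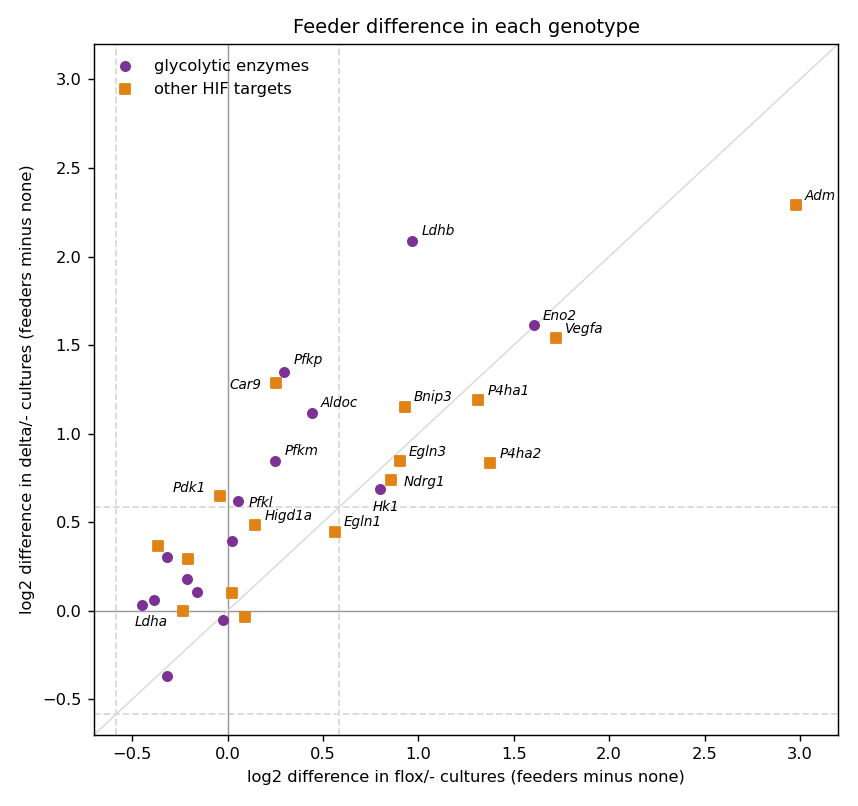
Log2 difference between cultures on feeders and without (feeders minus none) in flox/- cultures (x axis) and delta/- cultures (y axis) for the 31 genes, 1 point per gene. Dashed lines mark 1.5-fold and the diagonal marks equal differences. Adm, Vegfa, Eno2, P4ha1, P4ha2, Bnip3, Egln3, Ndrg1, Hk1 and Ldhb lie past 1.5-fold on both axes.

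By the rule of size, 10 of the 30 genes were at least 1.5-fold higher on feeders in both genotypes (33.3%), against 7.95% of all genes, and none was lower (against 2.03%). The count includes Eno2, which passed the filter only through its arrays on feeders and so had to differ, and the share of all genes includes such genes as well. The 10 were 7 of the 16 other HIF targets (Adm, Vegfa, P4ha1, P4ha2, Bnip3, Egln3 and Ndrg1) and 3 of the 14 enzymes (Ldhb, Eno2 and Hk1). With the filter at the 60th percentile, which leaves out Eno2, 2 enzymes and 7 other HIF targets counted. The flox/- pair alone gave 10 of 30 higher, against 16.4% of all genes, and 0 lower, against 6.94%. The delta/- pair gave 15 of 30 higher, against 14.1%, and 0 lower, against 6.78%. Of the 31 genes with values, 17 had both signals on feeders above both on gelatin, against 27.2% of all genes tested. Hk2 and Slc2a1 had both below, against 21.6%. The fitted median was 0.64 over the other HIF targets and 0.27 over the enzymes, against 0.03 over all genes tested. The enzyme median was 0.074 with the mean of probe sets, 0.091 without the array labelled delta/- on gelatin and 0.43 without the flox/- array on gelatin. For the other HIF targets the pair medians were 0.41 in flox/- cells and 0.69 in cells labelled delta/-. For the enzymes they were 0.04 and 0.51. On their brightest probe sets Hif1a (fitted difference 0.03, SE 0.10), Slc2a1 (-0.12, SE 0.09), Slc2a3 (0.06, SE 0.07), Slc16a3 (0.00, SE 0.24) and Ankrd37 (0.04, SE 0.25) lay near the median of all genes. The values of Slc16a3 and Ankrd37 average pairs of opposite sign, -0.36 and 0.37, and -0.21 and 0.29, flox/- first. The Slc2a1 probe sets ran from -0.58 to -0.21 in flox/- cells and from -0.19 to -0.003 in cells labelled delta/-. Pdk1 differed between its probe sets, with -0.04 to 1.07 in flox/- cells and 0.60 to 0.79 in cells labelled delta/- over the 3 that passed the filter.

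Fibroblast markers were also higher on feeders, with pair medians of 4.62 in flox/- cultures and 3.49 in cultures labelled delta/-. Of 29 tested fibroblast markers, 26 rose with feeders over all genes by limma, against 3.88% of all genes, with a fitted median of 4.30. Col1a1, for example, read 627 and 1136 on feeders. Some of these markers lay below the filter signal of 9.46 on both arrays on gelatin. Those were tested only through their arrays on feeders and so had to differ. The part of feeder RNA in the higher Adm, Vegfa, P4ha1, P4ha2, Bnip3, Egln3, Ndrg1, Eno2, Hk1 and Ldhb signals was not tested, since no array of feeders alone was used here.

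Calls by the feeder test were sensitive to single arrays. With 3 arrays a model of 1 factor is needed, which called Adm and Bnip3 among the 30 with all 4 arrays. Without the flox/- array on feeders or the array labelled delta/- on feeders, none of the 30 was called. Under the former the adjusted p was 0.0927 for Adm and 0.116 for Bnip3, and under the latter 0.0811 and 0.176. Adm and Bnip3 were called without the flox/- array on gelatin (adjusted p = 0.0102 and 0.0252) and without the array labelled delta/- on gelatin (0.00422 and 0.0236). Leaving out the flox/- array on gelatin moved the Ldhb difference to 2.24 (adjusted p = 0.00363) and leaving out the array labelled delta/- on gelatin moved it to 0.81 (adjusted p = 0.0731). By contrast, the difference of Adm stayed between 2.44 and 2.83 over these 4 runs, that of Bnip3 between 0.96 and 1.12, of P4ha1 between 1.08 and 1.43, and of Vegfa between 1.26 and 1.998.

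**Figure D5:**
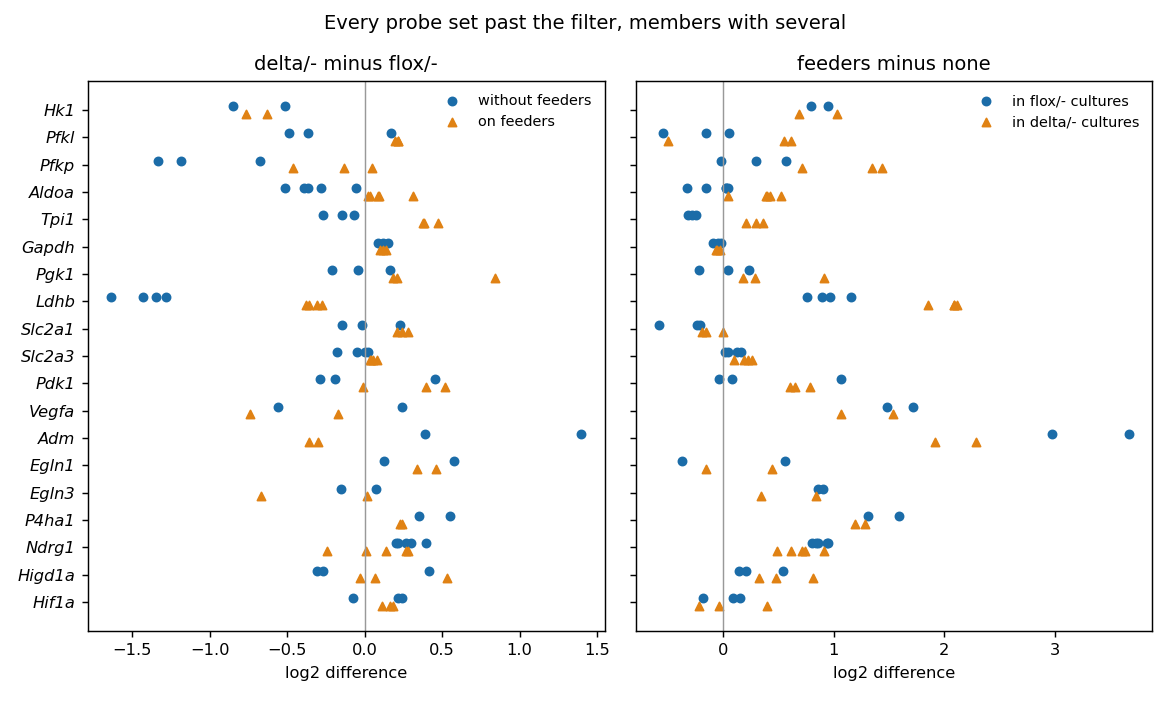
Log2 differences of every probe set past the filter for the 19 genes with at least 2 such probe sets, 1 point per probe set, between genotypes (left, delta/- minus flox/-) and by feeders (right, feeders minus none). The 4 Ldhb probe sets lie between -1.64 and -1.28 between genotypes on gelatin, and the 5 Ndrg1 probe sets between 0.81 and 0.95 by feeders in flox/- cultures, while Pdk1, Higd1a and Pgk1 probe sets spread on both sides of 0 between genotypes on gelatin.

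Other genes of the pathways were counted in lists outside the 34. Of 29 further HIF targets 25 were tested, and 7 rose and 0 fell with feeders over all genes by limma, at a fitted median of 0.50, where 3.88% of all genes rose and 0.881% fell. For the unadjusted counts of these lists, the shares of all genes are 14.1% higher and 7.77% lower by feeders, and 5.8% higher and 6.5% lower between genotypes. The 3 with the largest differences were Lox, an extracellular enzyme that crosslinks collagen and is also in the fibroblast list (6.16, SE 0.37, adjusted p = 0.00159), Rora (1.49, SE 0.27, adjusted p = 0.0424) and Stc2 (1.48, SE 0.25, adjusted p = 0.0334). Between genotypes 0 of the 25 passed by limma, with 2 higher and 3 lower at an unadjusted p under 0.05. Of 12 genes of the HIF machinery, including the partner subunit, VHL and coactivators, 0 passed with feeders and 0 between genotypes, with 1 higher and 2 lower by feeders and 1 higher by genotype at an unadjusted p under 0.05. Of 26 other glycolysis genes, such as minor isozymes and regulators, 19 were tested and 0 passed in either comparison. At an unadjusted p under 0.05, 3 were higher and 1 lower by feeders, and 1 was higher and 3 lower between genotypes. Mitochondrial pyruvate and citric acid cycle genes had 21 of 23 tested and 0 passed by limma, with 1 higher and 2 lower by feeders and 3 lower between genotypes at an unadjusted p under 0.05. Among 9 tested genes of the pentose phosphate and glycogen pathways, Pygl, the liver glycogen phosphorylase, rose with feeders (1.29, SE 0.25, adjusted p = 0.0494), with signals of 59.8 and 26.7 on gelatin and 118 and 93.3 on feeders.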

How the data were processed

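Array intensities were used as the authors deposited them: linear MAS5 signals for 45101 probe sets, per the submitters' processing notes, which name no version. With a 2% trimmed mean of 100 on every array, the signals were not rescaled. The table pairing probe sets with genes gave 34945 probe sets 1 symbol, 932 several and 9160 none, and 64 control probe sets were left out. Signals were taken as log2(signal + 4.6), where 4.6 is the 25th percentile of all signals, and genes with a mean under the 40th percentile (log2 3.81) were left out, which left 12485 genes and all 30 members with an ordinary probe set. Fold values carry this offset, which draws those of weak signals towards 1. The test was limma 3.58.1 in R 4.3.3 (genotype and feeder terms, eBayes with a variance trend, two-sided, Benjamini-Hochberg over all genes, threshold 0.05), with 1 residual degree of freedom and 4.75 prior ones. That residual measures how far the genotype effect on feeders departs from the one on gelatin. P-values measure no spread between cultures. Alternatives were other offsets, filters, normalizations, probe set rules and models, and leaving out each array. The named genes were the list itself, the checks Sall4 and Pou5f1, and defining fibroblast markers. Vim was added as the largest part of the fibroblast marker sums on gelatin. Of each other list at most 3 genes with the largest fitted difference were named. The members and lists were chosen with earlier results of these data known. No array of feeder cells alone was analysed here.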

Additional observations from a re-analysis of the deposited data

Results flagged for a closer look

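The genes Adm, Pdk1, Slc16a3 and Tpi1 had differences of opposite sign in the 2 pairs of arrays, at least 1.2-fold each way, a limit set after the values were seen. Each pair is 1 array against 1, and the difference was not tested. Between genotypes Adm was 0.39 on gelatin and -0.30 on feeders on the log2 scale, a change of -0.69, while Pdk1 went from -0.29 to 0.40, a change of 0.69, and Slc16a3 from -0.27 to 0.46, a change of 0.73. With feeders Slc16a3 was -0.36 in flox/- cells and 0.37 in cells labelled delta/-, which is the same change of 0.73 by arithmetic, and Tpi1 was -0.31 and 0.30, a change of 0.62. The second Adm probe set had the same signs, at 1.40 and -0.36, and 1 of the 3 Pdk1 probe sets past the filter had the reverse, at 0.46 and -0.01.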

How the results depend on the processing

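No paired analysis was possible because each group is 1 array and the labels carry no replicate numbers. Of 596 values of single genes recomputed on all 4 arrays, 558 kept direction and side of the threshold, 11 lost a call, 2 gained one and 25 changed sign, none of these called, and the cause was not tested. The feeder test called 595 genes, and 269 with no filter, 268 with a filter at the 60th percentile, 384 with the mean of probe sets, 231 with 1 factor, 183 with no variance trend and 23 to 534 without 1 array. Its 1 call among the enzymes was Ldhb. The count became 0 with an offset of 1, no filter, the filter at the 60th percentile, 1 factor or no variance trend. Without 1 array the Ldhb difference ran from 0.81 to 2.24 and that of Pfkp from 0.23 to 1.42. With the mean of probe sets the feeder test called Eno2 in place of Ldhb, so the count stayed at 1. Its 4 calls among the other HIF targets became 2 with 1 factor, 1 with no variance trend and 0 to 3 without 1 array, and their median of 0.64 became 0.42 with the offset at the median signal. At 2-fold in place of 1.5-fold, 1 of the 3 enzymes and 3 of the 7 other HIF targets counted as higher in both pairs. The genotype test called 4 genes, and 0 with no filter, the filter at the 60th percentile, 1 factor, no variance trend or without 1 array, and 7 with quantile normalization, median centring or plain probe sets first. Among members 1.5-fold lower in both pairs by genotype, 1 enzyme counted with the mean of probe sets, and 1 other HIF target with an offset of 1, quantile normalization or median centring, against 0 otherwise. The genotype median of the other HIF targets, 0.05, ranged from -0.32 to 0.25 without 1 array.

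Feeder differences that changed sign were, with quantile normalization, Ankrd37 -0.084, Pgk1 0.038, Pkm 0.046, Slc16a3 -0.094 and Tpi1 0.069, with median centring, Ankrd37 -0.023, Hif1a -0.039, Slc16a3 -0.066 and Slc2a3 -0.0051, with the mean of probe sets, Pgk1 0.24 and Tpi1 0.006, and with plain probe sets first, Pgk1 0.17. Genotype differences that changed sign were Adm at -0.0051 with the offset at the median signal, Slc2a3 at -0.007 with quantile normalization, and, with median centring, Adm -0.018, Bnip3 -0.016, Egln3 -0.014, Pdk1 -0.0074, Pgam1 -0.019 and Slc2a3 -0.018. With the mean of probe sets they were Egln3 -0.18, Higd1a 0.067 and Pgk1 0.19, and with plain probe sets first Pgk1 0.083 and Slc2a3 -0.0041.

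Without 1 array a model of 1 factor is fitted, which by construction mixes the other factor into the difference, and the lone array of a group is assumed to vary like the others. Feeder differences then ranged over both signs for Ankrd37 (-0.22 to 0.30), Hif1a (-0.091 to 0.15), Ldha (-0.43 to 0.013), Pgk1 (-0.12 to 0.090), Pkm (-0.13 to 0.079), Slc16a3 (-0.23 to 0.23) and Tpi1 (-0.24 to 0.23). Genotype differences did so for Adm (-1.45 to 1.53), Aldoa (-0.29 to 0.10), Bnip3 (-0.53 to 0.62), Car9 (-1.27 to 0.013), Egln3 (-0.40 to 0.50), Eno2 (-0.65 to 0.96), Higd1a (-0.34 to 0.14), Hk2 (-0.32 to 0.047), Ldha (-0.024 to 0.43), Ldhb (-1.91 to 0.18), Ndrg1 (-0.090 to 0.77), P4ha1 (-0.37 to 0.95), P4ha2 (-0.89 to 0.49), Pdk1 (-0.27 to 0.38), Pfkl (-0.39 to 0.22), Pfkp (-1.34 to 0.014), Pgam1 (-0.15 to 0.23), Pgk1 (-0.12 to 0.091), Pkm (-0.0006 to 0.16), Slc16a3 (-0.083 to 0.28), Slc2a1 (-0.019 to 0.21), Slc2a3 (-0.0093 to 0.093) and Vegfa (-1.51 to 0.21). Without crossing 0, the genotype difference ran from -0.97 to -0.17 for Hk1 and from 0.24 to 0.80 for Egln1.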
